A study of Homo sapiens with 24 samples.

Results

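LOC644656, LOC338799, FLJ37453, THAP7-AS1 and PPIEL are 5 annotated noncoding transcripts for which the study designed RT-qPCR primers, and they are followed here on the polysome arrays. Members were taken by the gene name printed beside each catalog probe, whatever their signal, which gave 5 genes of 15102 catalog gene names, or of 37109 gene and transcript names on the array. They are covered by 6 catalog probes, of which none carried an outlier flag. A further 12 custom lncRNA probes of the same array were tied to LOC338799, THAP7-AS1 and PPIEL, 10 through their accession and 2 through the PPIEL primer sequence.

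The 24 single-colour (Cy3) arrays measured RNA of MRC5 cells, a human fetal lung fibroblast line, so every group describes 1 line. Control cells were untreated, and cells under oxidative stress (OS) received 0.2 mM H2O2 for 2 hr. Both kinds of cells were given cycloheximide, which holds ribosomes on RNA, shortly before harvest, and both gave total RNA and 3 pools of sucrose gradient fractions, namely untranslated (fractions 1-9), low (10-14) and high (15-23). Each of the 8 groups held 3 arrays, and each of 3 slides held 1 array of every group. The study describes a procedure carried out 3 times with separate RNA preparations. Control untranslated replicates 1 and 2 share 1 label number, however, so whether they were separate preparations could not be told. Labelling started from an oligo-dT primer, so the measurement was directed at RNA with a poly(A) tail.

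Antisense and divergent long noncoding RNAs are made from the strand opposite to a protein-coding gene, often from the same promoter region, and several of them rise when cells are stressed. In a sucrose gradient, free ribonucleoprotein particles stay near the top, and RNAs carrying many ribosomes sediment towards the bottom. A noncoding RNA can be found in any fraction, since large particles without ribosomes also sediment, and a pool therefore describes where an RNA was recovered rather than whether it is translated.

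LOC644656 (RefSeq ZNF143-AS1, NR_036539) lies antisense and divergent to ZNF143, a zinc finger activator of transcription. LOC338799 (LINC01089, NR_002809) overlaps SETD1B, a histone H3K4 methyltransferase gene. FLJ37453 (SPEN-AS1, NR_024279) starts opposite SPEN, a transcriptional corepressor that acts in Notch signalling and X inactivation, and THAP7-AS1 (NR_027052) starts opposite THAP7, a chromatin-associated repressor. PPIEL (NR_003929) is a relative of PPIE, a peptidylprolyl isomerase of the spliceosome. The catalog probes are shown by their first 30 bases to fix which stretch of each transcript was measured. Positions are those the array annotation gives in GRCh37.
LOC644656 A_33_P3668839: cctagacgccaatggaaagaaaatgggact
LOC338799 A_23_P116743: ttccaacctccattgcactgcttcccctaa
FLJ37453 A_32_P100258: acgcactgcgcaactgttttccagatacgg
FLJ37453 A_23_P302134: accccacccttgcagggtggagagaacacg
THAP7-AS1 A_23_P404094: ttatctggaggaggaatctctcaaagtaca
PPIEL A_33_P3357163: attttatgtggctaatgcctgctcatttct
The whole LOC644656 probe covers chr11:9481121-9481180 on the minus strand and begins at base 1065 of the transcript. The LOC338799 probe covers chr12:122233207-122233266 (minus strand, base 1427). Both FLJ37453 probes lie on the minus strand, A_32_P100258 at chr1:16160818-16160877 (base 2564) and A_23_P302134 at chr1:16161159-16161218 (base 2223). The THAP7-AS1 probe covers chr22:21356852-21356911 on the plus strand (base 641), and the PPIEL probe chr1:40013282-40013341 on the minus strand (base 1963). Each probe therefore sits in exon sequence of its noncoding transcript.

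Levels below are normalized signals on the log2 scale, with arrays of a group in the order of replicates 1, 2 and 3. A probe was called well above background on an array by the scanner software's own flag, and was tested in a comparison where all 3 arrays of 1 group or more carried that flag. OS low replicate 3 stood apart from the other 23 arrays. On it 95.4% of catalog probes were well above background, against 43.4% to 67.7% elsewhere, and the median catalog signal was 989.9 against 20.5 to 204.9, so low pool results are given with and without it. Of 10 fibroblast markers 4 were on the array and all 4 were well above background on all 6 total RNA arrays, whereas 0 of 2 epithelial markers, 1 of 2 endothelial markers and the 1 leukocyte marker were. The keratin gene KRT5 and the endothelial gene VWF were well above background on no total RNA array. The other epithelial marker, EPCAM, was so on some but not all of them, and the other endothelial marker, CDH5, on all 6. The leukocyte marker on the array was PTPRC, and its part in the results was not tested.

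Upon OS, 4 of the 6 catalog probes rose in total RNA, representing LOC644656, LOC338799 and FLJ37453, against 3.00% of the 10630 catalog probes tested there. The members belong to a panel that the study chose for a rise upon OS in RNA-seq of MRC5 and BJ cells. Which of that panel became members was settled with earlier results of these data known. For both reasons this count does not come from an unselected set, and its contrast with all catalog probes is no test. Among the rest of the panel, 1 of 5 probes tested rose in total RNA. The median difference of the 6 probes was 0.85 on the log2 scale, and that of all catalog probes tested was -0.02. In the pools, LOC644656 and LOC338799 rose in every one of the 3, while FLJ37453 rose in the low pool by 1 of its 2 probes. The counts of member probes called higher were 2 of 5 tested (untranslated), 3 of 5 (low) and 2 of 5 (high). Of all catalog probes tested, 14.1% were called higher in the untranslated, 4.29% in the low and 3.08% in the high pool. LOC644656 entered the pool tests through its OS arrays alone, and without it the counts were 1, 2 and 1 of 4. No member catalog probe was called lower upon OS, and none of those tested had an unadjusted p under 0.05 in that direction. In bulk RNA, more cells carrying a transcript and more of it in each cell cannot be told apart.

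LOC644656 gave the largest difference of the 6 probes in total RNA upon OS, and in control cells it was well above background in total RNA alone. In total RNA its levels were 6.98, 6.72 and 6.91 in control cells and 8.98, 8.63 and 9.15 upon OS. The groups did not overlap, and all 6 of these arrays were well above background. The difference was 2.05 ± 0.29 (SE, n = 3 arrays per group, 95% interval 1.44 to 2.66), a 4.15-fold rise (limma, adjusted p = 9.5e-05), and within the slides it was 2.00, 1.91 and 2.25.

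The control pools of LOC644656 carried no flag on any of 9 arrays, whereas the OS pools carried it on all 9. The untranslated pool gave 7.09, 6.36 and 6.40 in control cells and 8.17, 7.65 and 8.14 upon OS. The low pool gave 4.60, 4.24 and 5.43 in control cells and 8.40, 8.60 and 7.94 upon OS. In the high pool the levels were 3.78, 3.25 and 4.11 in control cells and 6.93, 6.77 and 7.00 upon OS. In each pool every OS array lay above every control array, and the OS signal was lowest in the high pool, while the OS untranslated and low pools overlapped.

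Because the control pools gave no signal well above background, the rise of LOC644656 in them is a lower bound, set against the lowest signal among flagged probes or the dim probe's own signal, whichever was higher. With the normalization used here it was at least 2.49-fold in the untranslated pool (OS mean 7.99, control mean 6.62). It was at least 9.78-fold in the low pool (8.31 against 4.76) and at least 3.06-fold in the high pool (6.90 against 3.71). The measured log2 differences were 1.37, 3.56 and 3.18, each with an SE of 0.29 (limma, adjusted p = 0.00247, 3.8e-07 and 1.1e-06). These p-values belong to the measured differences, which rest on control signals below the flag, and the bounds themselves were not tested. These bounds depend on the background correction, and with normexp the measured folds were 1.66, 2.71 and 2.30 (adjusted p = 0.0111, 7.2e-05 and 5.0e-04). Under 75th percentile scaling the untranslated pool call was lost (log2 difference 1.07, adjusted p = 0.322). Without OS low replicate 3, the low pool difference was 3.85 ± 0.32 (adjusted p = 5.4e-07). The differences held their direction within all 3 slides, with 1.05 to 1.82 in the untranslated, 2.51 to 4.36 in the low and 2.89 to 3.52 in the high pool.

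**Figure D1:**
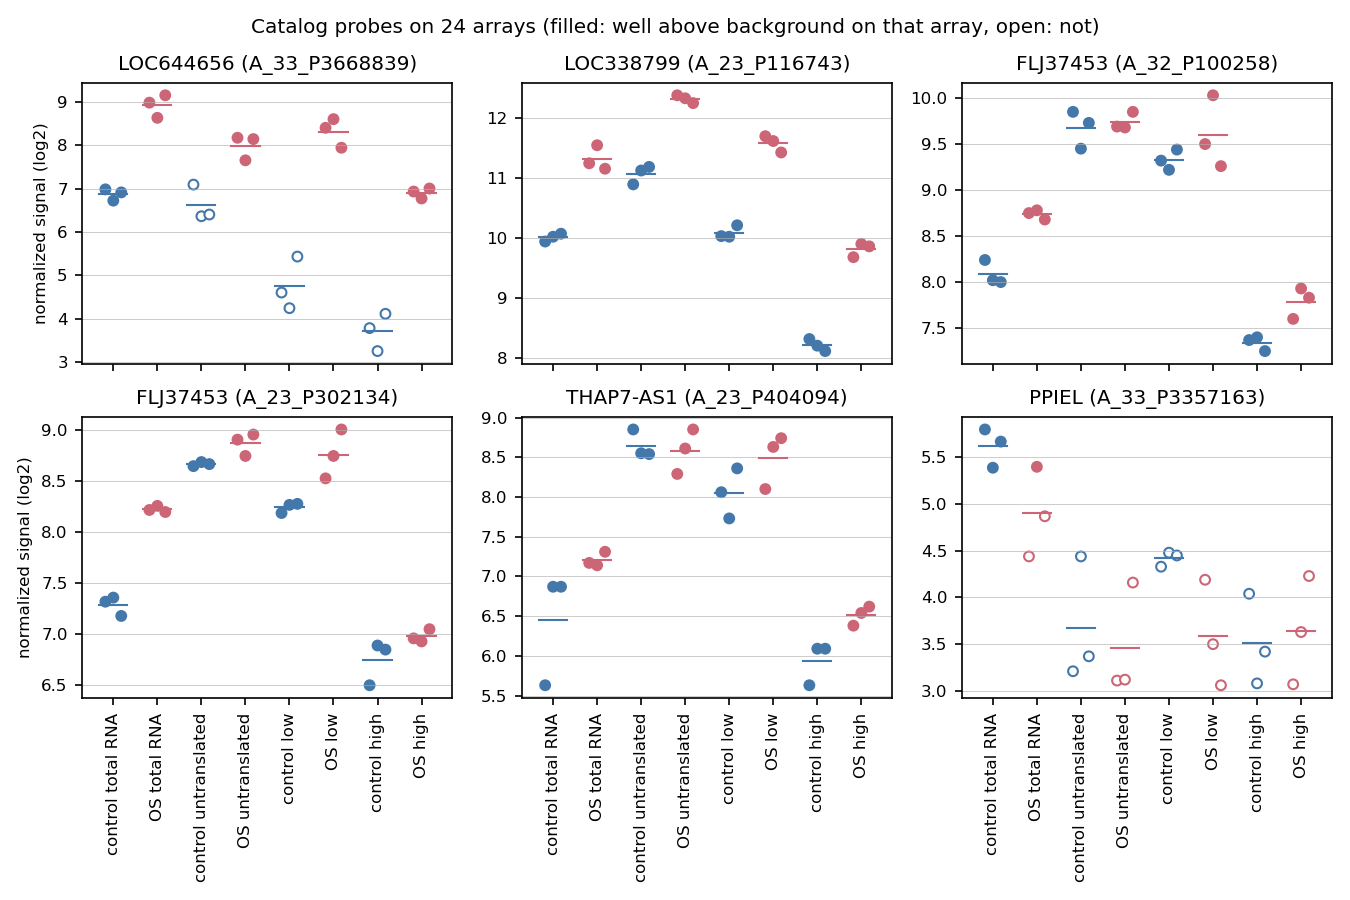
Normalized signal (log2, vertical axes with their own range in each panel) of the 6 catalog probes in the 8 groups. Each point is 1 array, filled where the probe was well above background on that array and open where it was not, and the line is the group mean. LOC644656 is open on all 9 arrays of the control pools and filled on all 12 OS arrays, and the LOC338799 points upon OS lie above the control points in total RNA and in each pool.

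LOC338799 was measured well above background on 24 of 24 arrays and rose 2.37-fold to 3.02-fold in every kind of RNA. Total RNA gave 9.94, 10.02 and 10.07 in control cells and 11.24, 11.54 and 11.15 upon OS. The untranslated pool gave 10.89, 11.12 and 11.18 against 12.37, 12.32 and 12.24 upon OS, which was its highest level of the 8 groups. OS and control arrays were clear of each other in both.

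In the low pool LOC338799 stood at 10.03, 10.02 and 10.21 in control cells and at 11.69, 11.61 and 11.42 upon OS. In the high pool it stood at 8.32, 8.21 and 8.12 in control cells and at 9.68, 9.90 and 9.86 upon OS. Its high pool levels were the lowest of the 8 groups and again did not overlap between the conditions.

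The rise of LOC338799 was 2.46-fold in total RNA (log2 difference 1.30 ± 0.13, adjusted p = 2.1e-06). It was 2.37-fold in the untranslated pool (1.25 ± 0.13, adjusted p = 4.1e-06), 2.80-fold in the low pool (1.49 ± 0.13, adjusted p = 1.2e-06) and 3.02-fold in the high pool (1.59 ± 0.13, adjusted p = 4.1e-07). Without OS low replicate 3 the low pool rise was 2.98-fold (adjusted p = 4.6e-07). Within the 3 slides the differences in total RNA were 1.30, 1.52 and 1.08. With only the 2 low pool groups in the fit the low pool rise kept its size but had an adjusted p of 0.0558. Under 75th percentile scaling none of the 4 rises passed, at 1.05 in total RNA (adjusted p = 0.372) and 1.33, 0.32 and 1.69 in the untranslated, low and high pools (adjusted p = 0.298, 0.644 and 0.131).

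LOC338799 has 6 custom probes, 2 on each of 3 transcripts. The catalog probe and CUST_27872, on transcript ENST00000542933.1, share a run of 26 bases, shown because both readings come from the same stretch.
A_23_P116743 and CUST_27872: gtgacctcctggaaggctggagcaca
CUST_27872 gave 10.34, 10.39 and 10.48 in control total RNA and 11.54, 11.87 and 11.56 upon OS. It rose by 1.25 ± 0.13 there (adjusted p = 2.4e-06), by 1.46 in the untranslated pool (adjusted p = 5.5e-07), by 1.40 in the low pool (adjusted p = 1.9e-06) and by 1.85 in the high pool (adjusted p = 4.5e-08). CUST_27873, on the same transcript, was dimmer and rose by 0.92 in total RNA (adjusted p = 0.00401), 1.33 in the untranslated (adjusted p = 9.1e-05), 0.96 in the low (adjusted p = 0.00462) and 1.07 in the high pool (adjusted p = 0.00162). On the control side CUST_27873 was well above background on 1 of 3 untranslated and 2 of 3 high pool arrays, so its tests there passed the filter through the OS group. Without OS low replicate 3 these low pool rises were 1.41 for CUST_27872 and 0.90 for CUST_27873. Several of these calls were lost under 75th percentile scaling. For CUST_27872 they were total RNA (1.07, adjusted p = 0.34), the untranslated (1.38, 0.255) and the low pool (0.39, 0.561). For CUST_27873 they were total RNA (0.95, adjusted p = 0.0797), the low (0.62, 0.134) and the high pool (1.10, 0.0875). With only the compared groups in the fit, both low pool calls were lost (adjusted p = 0.0564 and 0.162).

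The other custom probes of LOC338799 were dim. CUST_27875, on ENST00000429892.1, was called in the low pool alone, where it gave 5.69, 5.92 and 6.20 in control cells and 7.07, 6.88 and 9.27 upon OS. The highest of these is OS low replicate 3, and the difference was 1.80 with it (adjusted p = 0.0148) and 1.06 without it (adjusted p = 0.0151). The call was lost without control low replicate 1 (1.67, adjusted p = 0.0648) or 2 (1.78, adjusted p = 0.0527). It was also lost with only the compared groups in the fit (1.80, adjusted p = 0.575). CUST_27874, which overlaps CUST_27875 by 38 bases, was called in no comparison, and CUST_27876 and CUST_27877, which share 59 bases on ENST00000539299.1, were well above background on 3 of 24 arrays each. Over the 24 arrays the catalog probe correlated with CUST_27872 at r = 0.826 and with CUST_27877 at r = 0.185, as a description of arrays that share groups.

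FLJ37453 was read by 2 probes that lie apart on the transcript and were both well above background on 24 of 24 arrays (r = 0.957 between them over the arrays, which share groups). With A_32_P100258, total RNA gave 8.24, 8.02 and 8.0 in control cells and 8.75, 8.78 and 8.68 upon OS. With A_23_P302134, it gave 7.32, 7.36 and 7.18 against 8.22, 8.26 and 8.20. The conditions did not overlap in total RNA with either probe.

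In total RNA FLJ37453 rose by 0.65 ± 0.17 with A_32_P100258 (1.57-fold, adjusted p = 0.0203) and by 0.94 ± 0.13 with A_23_P302134 (1.92-fold, adjusted p = 1.0e-04). The first of these calls was lost when all probes were normalized together (0.60, adjusted p = 0.151), as the deposited table is (0.60, adjusted p = 0.15). It was also lost without control total RNA replicate 2 (0.62, adjusted p = 0.0788) or 3 (0.61, adjusted p = 0.0834) and without OS total RNA replicate 1 (0.65, adjusted p = 0.0693) or 2 (0.63, adjusted p = 0.0692), whereas A_23_P302134 kept its call in these cases. Both probes lost it under 75th percentile scaling (0.43 and 0.80, adjusted p = 0.939 and 0.266) and without normalization (0.34 and 0.70, adjusted p = 0.449 and 0.232).

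The pools separated the conditions of FLJ37453 less. In the untranslated pool A_32_P100258 gave 9.85, 9.45 and 9.73 in control cells and 9.69, 9.68 and 9.85 upon OS, which overlap (difference 0.06, 95% interval -0.29 to 0.41, adjusted p = 0.9). In the high pool it gave 7.37, 7.40 and 7.25 against 7.60, 7.93 and 7.83, without overlap, but the difference of 0.45 did not pass the test (95% interval 0.09 to 0.80, adjusted p = 0.176). Without OS low replicate 3, which enters the shared normalization and spread, that high pool difference was 0.46 and passed (adjusted p = 0.0388). A_23_P302134 differed by 0.20 in the untranslated pool (adjusted p = 0.377) and by 0.23 in the high pool (adjusted p = 0.527).

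In the low pool the FLJ37453 probe A_23_P302134 gave 8.19, 8.27 and 8.28 in control cells and 8.53, 8.75 and 9.01 upon OS, with OS low replicate 3 the highest. It rose by 0.52 ± 0.13 (1.43-fold, adjusted p = 0.0239), and by 0.40 without that array (adjusted p = 0.0411). Without control low replicate 1, 2 or 3 the call was lost (0.49, 0.53 and 0.53, adjusted p = 0.0898, 0.0693 and 0.0695). It was also lost under joint normalization and in the deposited table (0.19, adjusted p = 0.315), with normexp (0.18, adjusted p = 0.206), without normalization (0.59, adjusted p = 0.28), without the filter on dim probes (adjusted p = 0.0566) and with the 2 low pool groups alone (adjusted p = 0.548). A_32_P100258 gave 9.32, 9.22 and 9.44 against 9.50, 10.03 and 9.26, where OS low replicate 3 was instead the lowest OS array and lay inside the control range. Its difference of 0.27 did not pass (adjusted p = 0.253; 0.45 and adjusted p = 0.093 without that array). The direction of the low pool difference was not stable to scaling, being -0.01 for A_32_P100258 when all probes were normalized together, and -0.68 for A_32_P100258 and -0.32 for A_23_P302134 when arrays were scaled to their 75th percentile. Under that last scaling the median of all catalog probes tested was -1.01 in the low pool, against -0.18 otherwise.

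THAP7-AS1 was well above background on 24 of 24 arrays, and without a block for slide no difference upon OS passed the test with its catalog probe. In total RNA the control arrays gave 5.63, 6.87 and 6.87 and the OS arrays 7.17, 7.14 and 7.31. Although the conditions did not overlap, the difference of 0.76 (95% interval 0.17 to 1.34) had an adjusted p of 0.129, and with slide as a block it passed (adjusted p = 0.0405). Control total RNA replicate 1 held the lowest of these levels, and without it the difference was 0.34 (adjusted p = 0.669).

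In the pools THAP7-AS1 differed upon OS by -0.07 in the untranslated (adjusted p = 0.938), by 0.44 in the low (adjusted p = 0.259; 0.33 and adjusted p = 0.733 without OS low replicate 3) and by 0.58 in the high pool (adjusted p = 0.365). The low pool gave 8.06, 7.73 and 8.36 in control cells and 8.10, 8.63 and 8.74 upon OS, which overlap. The high pool gave 5.63, 6.09 and 6.09 against 6.38, 6.54 and 6.62, without overlap. Of its custom probes, CUST_42361 and CUST_42362, which share 59 bases on ENST00000429962.1, were bright on 24 of 24 arrays and differed by 0.31 (adjusted p = 0.286) and 0.15 (adjusted p = 0.839) in total RNA. CUST_42359 and CUST_42360, on ENST00000436079.1, were well above background on 3 and 8 of 24 arrays.

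**Figure D2:**
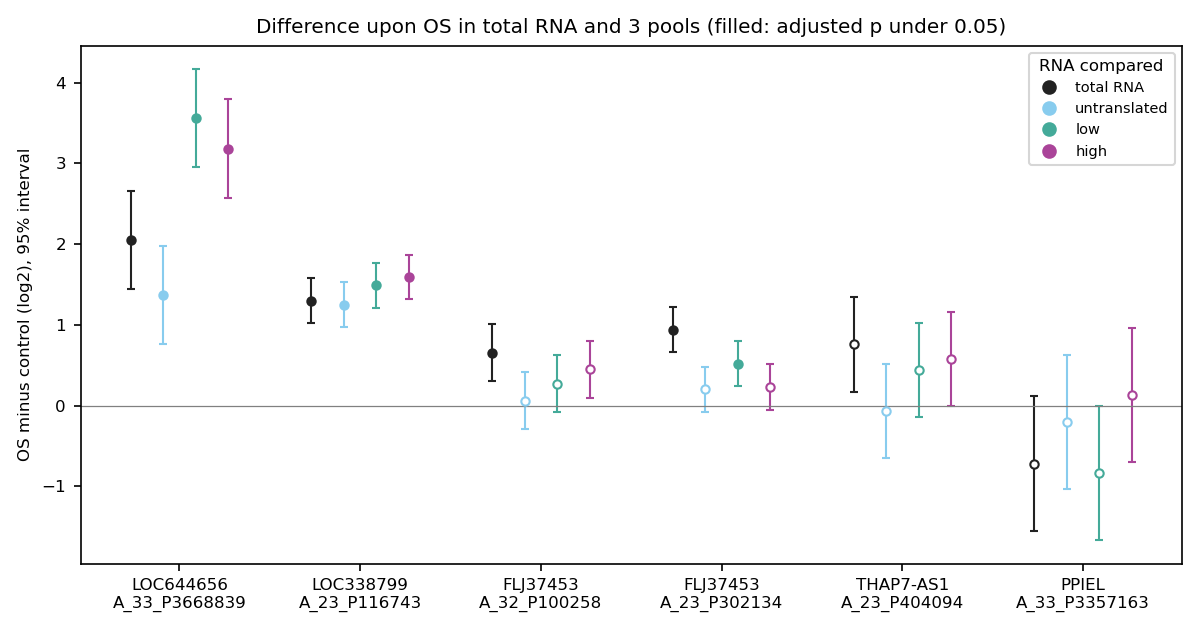
OS minus control (log2, vertical axis) of the 6 catalog probes in total RNA and in the 3 pools, with 95% intervals from the fit over all groups. Filled points passed the test and open points did not or, for PPIEL in the pools, were not tested. All 4 LOC644656 points and all 4 LOC338799 points are filled and above 0, and the 3 pool points of LOC644656 rest on control signals below the background flag.

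PPIEL was read differently by its catalog and custom probes. The catalog probe gave 5.80, 5.39 and 5.67 in control total RNA, all well above background, and 4.44, 5.40 and 4.87 upon OS, of which 1 was. The conditions overlapped and the difference of -0.72 did not pass the test (95% interval -1.55 to 0.12, adjusted p = 0.41). In the pools it carried no flag on any array, at levels of 3.06 to 4.48, and was not tested.

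CUST_855 and CUST_856, 2 custom probes that share 59 bases on ENST00000440190.1, hold the site of the PPIEL reverse primer. They are shown around that site, with the reverse complement of the primer in capitals, since this match is what ties them to PPIEL.
reverse primer: tccatgtacacctgaggatttg
CUST_855 and CUST_856: ggcctagtCAAATCCTCAGGTGTACATGGA
CUST_856 gave 9.28, 9.52 and 9.67 in control total RNA and 9.63, 9.50 and 9.73 upon OS, which overlap (0.13, 95% interval -0.35 to 0.61, adjusted p = 0.948). CUST_855 gave 3.60, 9.63 and 9.74 against 9.61, 9.57 and 9.88. Its first value, on control total RNA replicate 1, was not well above background, and the difference of 2.03 (adjusted p = 0.305) became 0.00 without that array.

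In the low pool CUST_856 stood at 9.81, 9.76 and 9.72 in control cells and at 9.56, 9.42 and 8.25 upon OS, with OS low replicate 3 the lowest. The difference of -0.69 did not pass (adjusted p = 0.0735), and without that array it was -0.28 (adjusted p = 0.167). The correlation of the catalog probe with CUST_856 over the 24 arrays was 0.009. Whether the custom probes also bind PPIE mRNA was not examined, as no transcript sequences were at hand. The array also held no catalog probe named PPIE to set beside them.

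Among the custom probes together, 2 of 8 tested were called higher in total RNA, 2 of 8 in the untranslated, 3 of 9 in the low and 2 of 7 in the high pool, and none lower. All of those called belong to LOC338799. In the untranslated and high pools CUST_27873 and CUST_27875 entered the tests through their OS arrays alone, as did CUST_27874 in the untranslated pool. In those pools CUST_27872 was therefore the only probe called that was well above background on every control and OS array. Of all custom lncRNA probes tested, 6.03% were called higher in total RNA, 5.00% in the untranslated, 2.71% in the low and 4.58% in the high pool.

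**Figure D3:**
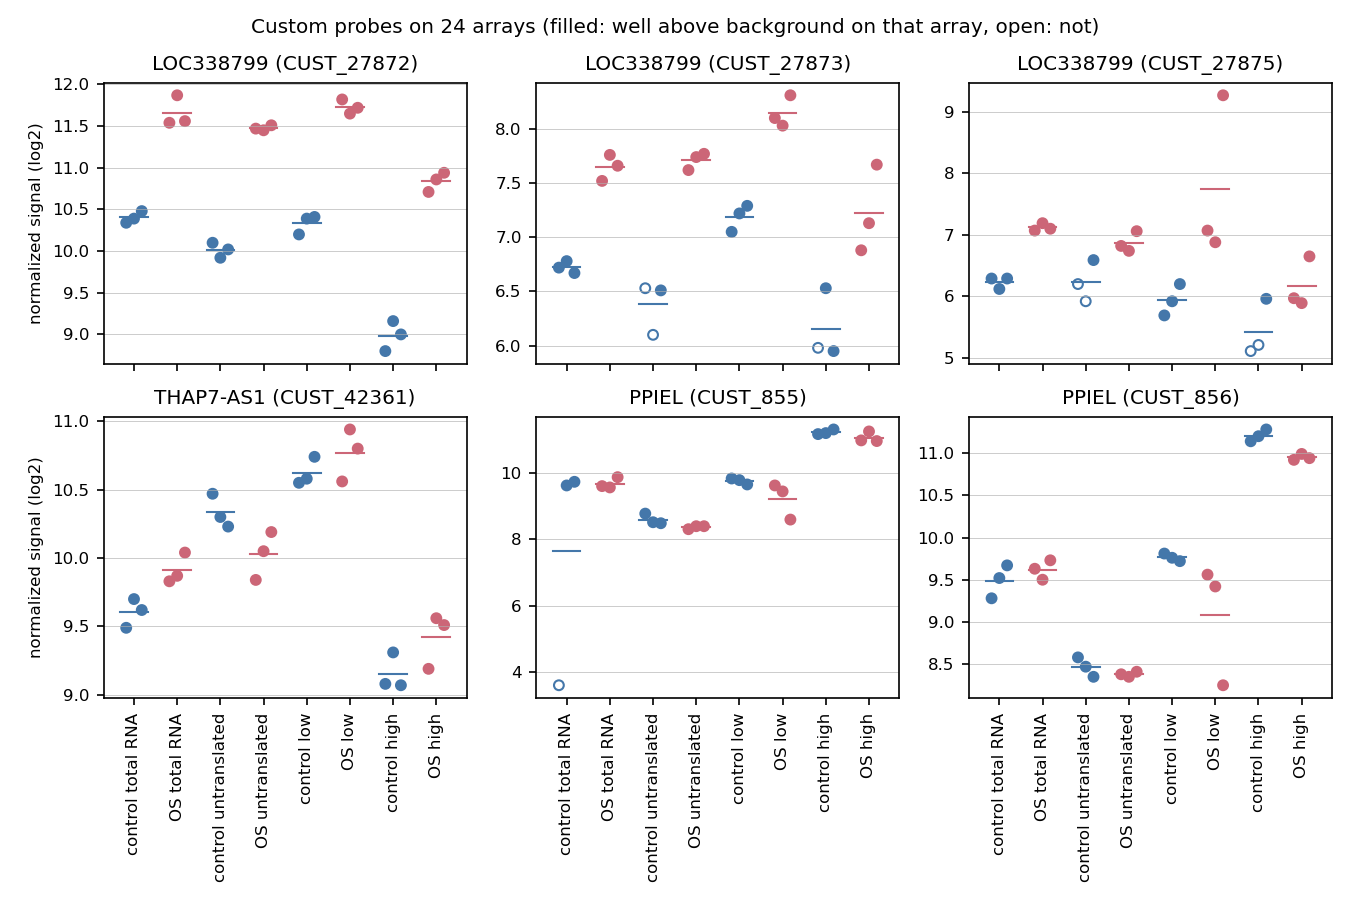
Normalized signal (log2, vertical axes with their own range in each panel) of 6 custom probes in the 8 groups, with points filled where the probe was well above background on that array and lines at group means. CUST_27872 is higher upon OS in all 4 kinds of RNA, CUST_855 drops to 3.60 on 1 control total RNA array, and the PPIEL probes are highest in the high pool.

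Whether OS moved a transcript along the gradient was asked by the difference between its change in the high or low pool and its change in the untranslated pool, called the shift here. The 2 shifts share the untranslated pools. For LOC644656 the control side was not measured, since all 9 control pool arrays lacked the flag, and its rise in the untranslated pool has no upper limit, so no shift was established on these arrays. The fit gave it 1.81 towards the high pool (adjusted p = 0.01) and 2.19 towards the low pool (adjusted p = 0.0114), or 2.44 without OS low replicate 3 (adjusted p = 0.00315), and these values rest on signals below the flag. With normexp background correction they were 0.47 (adjusted p = 0.394) and 0.71 (adjusted p = 0.167). The study also measured LOC644656 by RT-qPCR in single gradient fractions of untreated and H2O2-treated MRC5 cells. It presents the transcript as an example of a lncRNA found with polysomes, and those measurements are not part of the arrays read here.

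LOC644656 was the 1 called of 5 member probes in each shift, and it entered through its OS arrays alone, so of the 4 probes measured on both sides none was called by limma and 0 had an unadjusted p under 0.05. Of all catalog probes tested 6.87% were called higher in the shift to the high pool and 0.580% in the shift to the low pool. LOC338799 differed by 0.35 ± 0.19 in the shift to the high pool (95% interval -0.05 to 0.74, adjusted p = 0.332) and by 0.24 in that to the low pool (-0.15 to 0.64, adjusted p = 0.466; 0.33 and adjusted p = 0.327 without OS low replicate 3). The shift to the high pool was 0.39 (adjusted p = 0.422) and 0.03 (adjusted p = 0.955) with the 2 FLJ37453 probes and 0.64 with THAP7-AS1 (95% interval -0.18 to 1.47, adjusted p = 0.415). No custom probe passed limma's test in either shift, with 8 tested to the high and 9 to the low pool, and 1 of them, CUST_42361, had an unadjusted p under 0.05 in both.

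The study's methods compared the OS-to-control ratio of each pool and asked for a difference of at least 1 between ratios, beside an unadjusted p under 0.1 in total RNA. By that rule 1 of the 6 catalog probes passed. This was LOC644656, with ratios of 2.59, 11.8 and 9.09 in the untranslated, low and high pools, each taken against control signals below the flag, so they give no order of the pools. When all probes were normalized together the highest ratio was that of the high pool, at 11. LOC338799, with ratios of 2.37, 2.80 and 3.02, differed by 0.647 and did not pass. The study's methods also removed replicates that failed to cluster with the others, whereas OS low replicate 3 was kept in these ratios. With that array dropped, the low pool ratio was 13.4 for LOC644656 and 2.96 for LOC338799, and LOC644656 was again the only probe to pass.

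The member catalog probes that could be tested lay towards the top of the gradient relative to the other catalog probes. FLJ37453 (both probes), LOC338799 and THAP7-AS1 were lower in the high than in the untranslated pool in control cells, 4 of 4 catalog probes tested. Upon OS the same held for 5 of 5, LOC644656 included. Of all catalog probes tested 30.7% were called lower in control cells and 27.9% upon OS.

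LOC338799 was 2.85 lower in the high pool on the log2 scale in control cells (7.19-fold, adjusted p = 2.0e-12), and its levels in the untranslated and high pools, given above, were far from overlapping. Upon OS the gap was 5.65-fold (adjusted p = 2.0e-11). FLJ37453 fell by 2.34 with A_32_P100258 (adjusted p = 6.4e-10) and by 1.92 with A_23_P302134 (adjusted p = 4.0e-10) in control cells, and by 1.95 (adjusted p = 1.2e-08) and 1.89 (adjusted p = 8.3e-10) upon OS.

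THAP7-AS1 stood at 8.85, 8.55 and 8.54 in the control untranslated pool and at 8.29, 8.61 and 8.85 in that pool upon OS. Set against the high pool levels above, this was a fall by 2.71 in control cells (adjusted p = 8.2e-08) and by 2.07 upon OS (adjusted p = 3.7e-06). LOC644656 fell by 1.09 ± 0.29 upon OS (adjusted p = 0.00355), and was not tested in control cells, where neither pool was well above background. That call was lost when all probes were normalized together (-0.28, adjusted p = 0.514) and with normexp (-0.19, adjusted p = 0.404).

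These gradient differences are relative, because each pool was scaled to 1 common distribution. Without any normalization the median of all catalog probes tested was 2.85 higher in the high pool in control cells and 2.73 higher upon OS (0.35 and 0.36 with normalization), and on that raw scale FLJ37453 turned to higher in the high pool with both probes and both conditions, as did LOC338799, THAP7-AS1 and LOC644656 upon OS. Relative to that median they lay at -2.93 and -2.52 for LOC338799 in control cells and upon OS, at -2.62 and -2.14 for FLJ37453 A_32_P100258, at -2.36 and -2.29 for A_23_P302134 and at -3.34 and -2.61 for THAP7-AS1. LOC644656 lay at -1.61 relative to it upon OS. Under 75th percentile scaling A_32_P100258 lost its gradient calls in control cells (-0.98, adjusted p = 0.0689) and upon OS (-0.56, adjusted p = 0.301). A_23_P302134 lost them as well (-0.72 and -0.71, adjusted p = 0.0702 and 0.0765). Upon OS, the calls of LOC338799 (-0.94, adjusted p = 0.114) and LOC644656 (-0.04, adjusted p = 0.946) were also lost under that scaling.

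**Figure D4:**
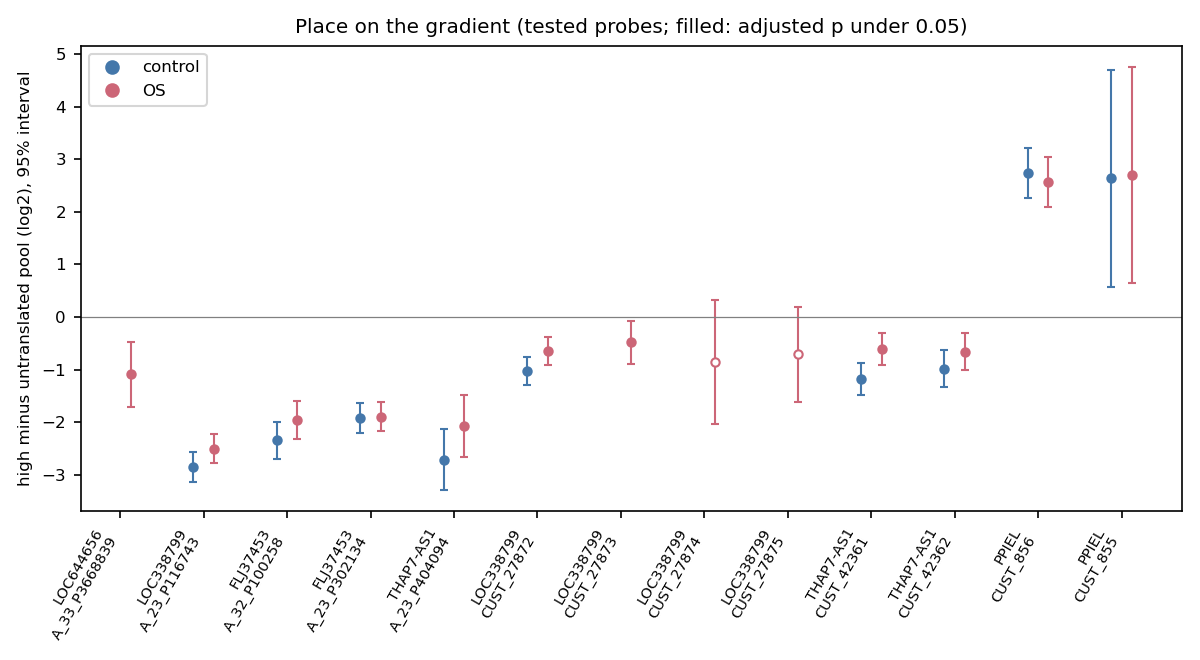
High minus untranslated pool (log2, vertical axis) with 95% intervals for the catalog and custom probes tested, in control cells and upon OS. The catalog probes lie below 0, the custom probes of LOC338799 and THAP7-AS1 lie between 0 and -1.18 as point estimates, and the 2 PPIEL probes lie between 2.57 and 2.73 in both conditions.

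The 2 custom probes tied to PPIEL by the primer match lay on the opposite side of the gradient, where the PPIEL catalog probe was not well above background, and binding of PPIE mRNA to them was not tested. CUST_856 gave 8.58, 8.47 and 8.35 in the control untranslated pool and 11.14, 11.20 and 11.28 in the control high pool, a 6.66-fold gap (2.73 ± 0.23, adjusted p = 4.7e-09). Upon OS it gave 8.38, 8.35 and 8.41 against 10.92, 10.99 and 10.94, a 5.94-fold gap (2.57, adjusted p = 1.7e-08). CUST_855 differed by 2.64 (adjusted p = 0.0252) and 2.71 (adjusted p = 0.024), calls that were lost when all probes were normalized together (1.35, adjusted p = 0.213, and 1.62, adjusted p = 0.143) and without 5 single arrays in each condition. In control cells these were control high replicates 1, 2 and 3 and control untranslated replicates 2 and 3 (2.59 to 2.66, adjusted p up to 0.059), and upon OS the 3 OS untranslated replicates and OS high replicates 2 and 3 (2.61 to 2.75, adjusted p up to 0.0595).

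For LOC338799 the custom probe CUST_27872 was lower in the high pool by 1.03 in control cells (adjusted p = 1.3e-06) and by 0.64 upon OS (adjusted p = 3.2e-04), beside -2.85 and -2.50 with the catalog probe, whose category was normalized separately. CUST_27873 was lower by 0.48 upon OS (adjusted p = 0.0381), a call lost without any 1 of OS untranslated replicates 1, 2 and 3 and OS high replicates 1 and 2 (-0.31 to -0.53, adjusted p up to 0.203). THAP7-AS1 was lower by 1.18 with CUST_42361 (adjusted p = 9.8e-07) and by 0.98 with CUST_42362 (adjusted p = 4.9e-05) in control cells, and by 0.60 (adjusted p = 0.00157) and 0.66 (adjusted p = 0.0023) upon OS. In all, 3 of 5 custom probes tested were lower and 2 higher in control cells, and 4 of 8 lower and 2 higher upon OS. Of all custom lncRNA probes tested, 25.8% were lower and 27.9% higher in control cells, and 23.5% lower and 26.6% higher upon OS. Upon OS, but without normalization, CUST_27872, CUST_27873, CUST_42361 and CUST_42362 turned to higher in the high pool. Under 75th percentile scaling the OS calls of CUST_27872 (-0.82, adjusted p = 0.163), CUST_42361 (-0.85, adjusted p = 0.124) and CUST_42362 (-0.90, adjusted p = 0.108) were lost.

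The order of the group means differed between members. LOC338799 was highest in the OS untranslated pool (12.31), followed by the OS low pool (11.57) and OS total RNA (11.31), with overlap between the latter pair, and lowest in the control high pool (8.22). LOC644656 was highest in OS total RNA (8.92) and the OS low pool (8.31), which did not overlap. FLJ37453 A_32_P100258 was highest in the 2 untranslated and 2 low pools, with means of 9.33 to 9.74 whose neighbours in the order overlapped, and lowest in the high pools. THAP7-AS1 was likewise highest in the untranslated and low pools, with means of 8.05 to 8.65 and overlapping neighbours, and lowest in the control high pool (5.94) and control total RNA (6.46), which overlapped.

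Which transcripts of the study's RT-qPCR primer list became members was settled with earlier results of these data known. The others, put on that list by the study in the same way as the members, had 7 catalog probes here. Of these, 5 were tested in total RNA and 1 rose, KCNQ1OT1, an imprinted antisense transcript of the KCNQ1 locus (1.36, adjusted p = 0.0152), a call lost without control total RNA replicate 3 (1.24, adjusted p = 0.0739) or OS total RNA replicate 1 (1.31, adjusted p = 0.0614). Their median difference was 0.44, against -0.02 over all catalog probes tested. None of the 4 tested was called upon OS in any pool or in either shift by limma, where 2 at most had an unadjusted p under 0.05, and all 4 were lower in the high than in the untranslated pool in both conditions. In the high pool SNHG12, a snoRNA host transcript, differed by 0.50 (adjusted p = 0.108) and LOC645676 by 0.60 (adjusted p = 0.0727).

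Protein-coding genes next to the members had 8 catalog probes, none of them for ZNF143, SETD1B, SPEN or PPIE. None of the 6 tested in total RNA was called by limma, and 0 had an unadjusted p under 0.05. THAP7, opposite THAP7-AS1, differed by 0.25 in total RNA (adjusted p = 0.538) and fell by 0.54 in the untranslated pool (adjusted p = 0.0233), where ZBTB17, a zinc finger factor near FLJ37453, also fell by 0.54 (adjusted p = 0.0158). LZTR1, an adaptor of a ubiquitin ligase that lies beside THAP7-AS1, rose there by 0.65 (adjusted p = 0.00316). Among all catalog probes tested in that pool, 13.2% were called lower and 14.1% higher. The THAP7, ZBTB17 and LZTR1 calls were all lost under 75th percentile scaling (adjusted p = 0.893, 0.936 and 0.761). The same happened without normalization (adjusted p = 0.283, 0.125 and 0.132) and with only the compared groups in the fit (adjusted p = 0.0543, 0.168 and 0.0517). The THAP7 call was lost without control untranslated replicate 1 or 2 or OS untranslated replicate 1 or 3 (-0.50 to -0.55, adjusted p up to 0.0796), and the ZBTB17 call without control untranslated replicate 2 or OS untranslated replicate 2 or 3 (-0.38 to -0.51, adjusted p up to 0.111).

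In the shift to the high pool LZTR1 (-0.81, adjusted p = 0.0158) and PABPC4, a cytoplasmic poly(A)-binding protein gene beside PPIEL (-1.34, adjusted p = 0.0267), were lower, 2 of 6 neighbours tested against 7.37% of all catalog probes. Both these shift calls were lost with normexp (adjusted p = 0.102 and 0.0645), under 75th percentile scaling (0.978 and 0.325) and without normalization (0.206 and 0.333). That of LZTR1 was also lost under joint normalization (-0.92, adjusted p = 0.0811), in the deposited table (adjusted p = 0.081) and without control high replicate 1 (-0.73, adjusted p = 0.0535), and that of PABPC4 without the filter on dim probes (adjusted p = 0.0731) and without control high or OS high replicate 1 or 2, OS untranslated replicate 2 or control untranslated replicate 3 (-1.15 to -1.35, adjusted p up to 0.0783).

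The catalog genes whose levels over the 24 arrays were most like those of a member were named by Pearson's r among 11448 probes, as a description of arrays that share groups. For LOC644656 they were GOLGA6L6 (0.929), RNU4ATAC (0.911) and TNFRSF25 (0.894). For LOC338799 they were ZGLP1 (0.982), C1orf213 (0.939) and SNHG10 (0.907). FLJ37453 A_32_P100258 was most like LOC375190 (0.991), SNHG7 (0.988) and C6orf226 (0.988), and A_23_P302134 most like LGR6 (0.968), CCDC88B (0.965) and DUSP28 (0.964).

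THAP7-AS1 was most like STX10 (0.964), FUNDC1 (0.962) and FDX1L (0.955), and PPIEL, with its catalog probe near background, most like CIRBP (0.859), LOC100127886 (0.849) and CLEC2D (0.846). SNHG7 and SNHG10 are snoRNA host transcripts, and RNU4ATAC is a small nuclear RNA of the minor spliceosome. What the RNU4ATAC probe read after oligo-dT labelling was not tested. CIRBP codes for a cold-inducible RNA-binding protein, TNFRSF25 for a death receptor and STX10 for a syntaxin of vesicle transport.

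Promoter sequence, from 250 bases before to 50 bases after the start in the RefSeq table (GRCh38.p14), was at hand for 4 of the 5 members. Starts of LOC644656 and ZNF143 lie 314 bases apart on opposite strands, and their promoter windows share 187 bases. FLJ37453 and SPEN start 440 bases apart and THAP7-AS1 and THAP7 196 bases apart, each on opposite strands. The starts of LOC338799 and RHOF, both on the minus strand, lie 9258 bases apart. Motifs were searched on both strands. GGGCGG, the GC box, was found for LOC644656, LOC338799 and FLJ37453, and stands in 45.0% of all 35116 promoters of that length. The antioxidant response core TGACNNNGC was found for THAP7-AS1 (13.3% of all promoters). Neither TGANTCA (AP-1), GTGAGCCA nor the core promoter motif TATAAA was in any of the 4 windows, against 7.7%, 1.2% and 11.5% of all promoters.

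A full cAMP response element, TGACGTCA, was noticed after the LOC644656 sequence was seen, in the stretch shared with ZNF143, and stands in 1.8% of all promoters. Stretches with these letters are shown in the direction of each transcript, with the motif in capitals (in FLJ37453 first the reverse complement of the GC box).
LOC644656, chr11:9460837-9460866, minus strand: gcccactcaacTGACGTCAgccaagcctga
LOC338799, chr12:121803009-121803038, minus strand: ttggctggagcaGGGCGGcagggcgcggca
FLJ37453, chr1:15848325-15848354, minus strand: ggcgcggcttggCCGCCCgcaccgccgaca
FLJ37453, chr1:15848188-15848217, minus strand: ggcaacgggccgGGGCGGgaagcggcgccc
THAP7-AS1, chr22:21001891-21001920, plus strand: ggcggagcagTGACGCGGCatctgggaaag
Counted from a start at 0, the TGACGTCA of LOC644656 begins at -157, the GC box of LOC338799 spans -80 to -75 and the antioxidant core of THAP7-AS1 spans -21 to -13. The windows held 58.0% (LOC644656), 61.0% (LOC338799), 75.3% (FLJ37453) and 67.0% (THAP7-AS1) G and C, against a median of 58.7% over all promoters, and 21, 24, 49 and 38 CG dinucleotides against a median of 14.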

How the data were processed

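RNA of MRC5 cells was hybridised to 24 one-colour arrays. The authors deposited scanner intensity per spot (Feature Extraction 10.7.3.1), with background subtracted and detrended but no normalization between arrays, and a log2 table (Partek per the labels) that differed by at most 0.00145 from the log2 intensity quantile-normalized over all probes together. The former was used.

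After removal of 178 probes that carried an outlier flag, there remained 43911 custom lncRNA and 17448 catalog probes. Log2 processed signals were quantile-normalized separately in both categories and fitted over the 8 groups in limma 3.58.1 (R 4.3.3), with empirical Bayes moderation and Benjamini-Hochberg adjustment over all probes tested in a comparison. Calls are at an adjusted p under 0.05, and every adjusted p in the text comes from this test. P-values measure the spread between these arrays, whose small number limits the precision. The fit was tested on simulated data.

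Named are all catalog probes of the members, the RT-qPCR panel and the coding neighbours, and the 3 genes most like each member probe. Members and lists were chosen with earlier results of these data known. One number labels both control untranslated replicates 1 and 2, which differed as other replicates do (SD of log2 differences 0.935 against 0.979 and 0.932), and were kept as 2 arrays. Whether they are 1 RNA preparation on 2 arrays could not be told. With their mean used instead, the THAP7 call in the untranslated pool was lost (-0.53, adjusted p = 0.0609). So was the call of CUST_855 along the gradient in control cells (2.66, adjusted p = 0.05). Alternatives covered scaling, background correction, filters, blocks and single arrays left out.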

Additional observations from a re-analysis of the deposited data

Results flagged for a closer look

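The differences upon OS of 3 genes were unequal between pools by the fitted test of that inequality. For LOC644656 the fit gave 1.81 on the log2 scale for the high against the untranslated pool (adjusted p = 0.01) and 2.19 for the low against the untranslated pool (adjusted p = 0.0114), but every control pool array was below the background flag, so an unequal rise was not established. LZTR1 had a difference of -0.81 between its change in the high and in the untranslated pool (adjusted p = 0.0158), which did not pass under joint normalization (-0.92, adjusted p = 0.0811), with normexp (adjusted p = 0.102) or without control high replicate 1 (adjusted p = 0.0535). PABPC4 had one of -1.34 (adjusted p = 0.0267), which did not pass with normexp (-0.75, adjusted p = 0.0645). No cause of these values was tested.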

How the results depend on the processing

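Of 1584 values recomputed with 1 array left out, 1536 kept their direction and side of the threshold, 40 lost a call, 1 gained one and 7 changed sign. Of 832 values under the other alternatives, 707 kept both, 92 lost a call, 2 gained one and 31 changed sign. The cause was not tested unless the alternative's own construction shows it, as with stricter filters. Low signal limits LOC644656 in control pools and the PPIEL catalog probe in all pools and in OS total RNA.

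Replicate numbers were not taken to pair the samples, since not every same-numbered pair deviated together (84 pairs, median r 0.151, lowest -0.469; 168 other-numbered pairs, median -0.0479, lowest -0.486), although same-numbered arrays were more alike at the median. A fit with the replicate block kept 4 member catalog probes called higher in total RNA, 2 in the untranslated, 3 in the low and 2 in the high pool, with 1 in each shift and 4 and 5 lower along the gradient in control cells and upon OS. With slide as a block, THAP7-AS1 was called in total RNA (0.76, adjusted p = 0.0405), making 5.

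Under 75th percentile scaling, member catalog probes called higher were 1 in total RNA, 0 in the untranslated, 1 in the low and 1 in the high pool and 0 in either shift, and 2 and 1 were lower along the gradient in control cells and upon OS. Without normalization 2 were higher in total RNA, and 0 lower in control cells, with 2 higher and 0 lower upon OS, along the gradient. With stricter detection, 1 was higher in the untranslated and 1 in the high pool, and 0 in either shift. With normexp both shifts had 0. The shift to the low pool also had 0 under joint normalization, in the deposited table and with the compared groups alone, where the low pool had 1.

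Signs changed as follows. A_32_P100258 of FLJ37453 gave -0.01, -0.68 and -0.01 in the low pool, and -0.09, -0.77 and -0.09 in the shift to it, under joint normalization, 75th percentile scaling and the deposited table. Under the second of these, A_23_P302134 gave -0.32 in the low pool and THAP7-AS1 -0.33, with shifts to it of -0.55 and -0.32, and that of LOC338799 was -1.01. A_23_P302134 gave shifts to the high pool of -0.06 under joint normalization and in the deposited table, -0.14 with normexp and -0.05 without normalization, and to the low pool of -0.05, -0.05 and, with normexp, -0.01. LOC338799 gave -0.01 in the shift to the high pool with normexp and -0.09 in that to the low pool without normalization. Without normalization the gradient differences were 0.23 (control) and 0.59 (OS) for A_32_P100258, 0.49 and 0.44 for A_23_P302134, and upon OS 0.21 for LOC338799, 0.12 for THAP7-AS1, 1.12 for LOC644656, 0.33 for CUST_27872, 0.38 for CUST_27873, 0.30 for CUST_42361 and 0.25 for CUST_42362.

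With single arrays left out, counts ran from 3 to 4 in total RNA, 2 to 3 in the low and 2 to 3 in the high pool, where A_32_P100258 passed without OS low replicate 3. The values that changed sign ranged from -0.05 to 0.15 (A_32_P100258, untranslated pool), 0.00 to 0.39 (A_32_P100258, shift to the low pool), -0.20 to 0.08 (THAP7-AS1, untranslated pool) and -0.09 to 0.10 (A_23_P302134, shift to the high pool).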
